A study of Mus musculus with 16 samples.

Results

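The tetraspanins that mark leukocytes were followed in 4 myeloid cell populations sorted from the tissue between bone tunnel and tendon graft after anterior cruciate ligament reconstruction (ACLR) in mice. The 7 genes Cd9, Cd63, Cd81, Cd82, Cd53, Cd37 and Cd151 were taken by name from a table of 20200 genes, and all 7 were present and abundant enough to be tested. The mice were wild-type C57BL/6 males operated on at 12 weeks of age, and all groups shared the surgery. No unoperated group enters these comparisons. Live, lineage-negative CD45+ cells were sorted on day 1 and on day 14 after surgery. CD9+ macrophages were CD11b+ Ly6G- F4/80+ CD9+. CX3CR1+ macrophages were CD11b+ Ly6G- F4/80+ CX3CR1+ and lacked CD9, so the rare cells with both proteins fell in the CD9+ gate. F4/80- myeloid cells were CD11b+ Ly6G- without F4/80, and neutrophils were Ly6G+ Ly6C+. CD9 protein thus separated the macrophage gates and was not used to gate the other populations. Each of the 8 groups of population and day had 2 RNA sequencing libraries, 16 in all, and each library came from a pool of mice.

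Tetraspanins are small proteins that cross the membrane 4 times and gather integrins, immunoglobulin-family proteins and proteases into membrane microdomains. CD9 and CD81 bind the same immunoglobulin-family partners and restrain the fusion of macrophages into multinucleated cells. CD63 sits mainly in late endosomes, lysosomes and secretory granules, reaches the surface of granulocytes when they degranulate, and is carried by exosomes together with CD9 and CD81. CD53 and CD37 are made almost only by blood cells, CD82 is found in many tissues and dampens adhesion and migration, and CD151 is known as a partner of laminin-binding integrins.

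In the mm10 annotation of the files, Cd9 lies on chromosome 6 from 125460266 to 125494791 on the minus strand. Cd63 lies on chromosome 10 (128900989 to 128912822), and Cd81, Cd37 and Cd151 lie on chromosome 7 (143052739 to 143067934, 45233632 to 45239115 and 141467392 to 141471473). Cd82 is on chromosome 2 (93419111 to 93463140) and Cd53 on chromosome 3 (106759921 to 106790149). Their summed exons covered between 1.74 kb for Cd53 and 3.68 kb for Cd63. Cd9, Cd81, Cd82, Cd37 and Cd151 each overlap a gene on the opposite strand, and whether the counting used the strand is not given in the sources used here. The counts of these neighbours reached at most 7.89% of the Cd9 count, 10.5% of the Cd81 count, 2.68% of the Cd82 count, 0.459% of the Cd37 count and 11% of the Cd151 count in any library.

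The upstream sequences of 3 members are shown because Cd9 and Cd81 were both lowest in CX3CR1+ macrophages, whereas Cd53 was not (values below). The sequences are from RefSeq (GRCm38.p6, the assembly of mm10) and cover the bases before the gene start that no annotated exon of the gene overlaps, 5′ to 3′ in the direction of the gene. The Cd9 sequence is chr6:125494792-125495010 (minus strand), the Cd81 sequence chr7:143052500-143052738 (plus strand) and the Cd53 sequence chr3:106790150-106790399 (minus strand). Capitals mark GGGCGG, the GC box, GAGGAA, the core of sites for PU.1-type factors, and CCAAT, the CCAAT box, each searched on both strands.
Cd9: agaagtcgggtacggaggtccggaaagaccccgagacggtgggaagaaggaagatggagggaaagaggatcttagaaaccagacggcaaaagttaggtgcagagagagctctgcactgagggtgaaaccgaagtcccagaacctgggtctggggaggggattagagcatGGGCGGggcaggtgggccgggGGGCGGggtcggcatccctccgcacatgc
Cd81: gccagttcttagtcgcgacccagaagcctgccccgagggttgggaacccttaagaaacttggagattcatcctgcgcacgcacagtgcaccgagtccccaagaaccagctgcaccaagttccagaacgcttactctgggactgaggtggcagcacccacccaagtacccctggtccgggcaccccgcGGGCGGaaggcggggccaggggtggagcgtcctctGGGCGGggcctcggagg
Cd53: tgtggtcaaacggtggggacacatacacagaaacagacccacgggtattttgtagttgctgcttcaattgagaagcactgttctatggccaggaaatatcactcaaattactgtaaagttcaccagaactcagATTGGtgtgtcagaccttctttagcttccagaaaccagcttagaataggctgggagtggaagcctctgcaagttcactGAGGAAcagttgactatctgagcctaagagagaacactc
Cd9 and Cd81 each held 2 GC boxes in the stretch shown and Cd53 held none, with 1 GAGGAA and 1 CCAAT box instead. Over the 250 bases before the RefSeq start, GC boxes were also present for Cd82, Cd37 and Cd151. Cd63, which was also lowest in CX3CR1+ macrophages, held no GC box and 2 GAGGAA there, and Cd37 also held 2 GAGGAA. The contrast of the 3 sequences shown thus did not extend to all 7 members. The windows of Cd63 and Cd37 lie wholly inside the gene spans given above and those of Cd9, Cd81 and Cd82 partly so, since the starts differ between annotations. Of the 32851 RefSeq windows of that length, 32.7% held GGGCGG, 23.3% held GAGGAA and 33.8% held CCAAT. These matches describe letters and not bound sites.

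Libraries held between 9233952 and 19814119 counts. Levels are given as CPM, the counts scaled to a common library size, and comparisons between genes as CPM per kb of exon. Of the gate genes, Adgre1, which encodes F4/80, was at 120 to 217 CPM in the libraries of both macrophage populations, at 8.43 to 13.8 CPM in F4/80- myeloid cells and at 20.2 to 43.6 CPM in neutrophils. Ly6g was at 81.7 to 286 CPM in neutrophils and at no more than 10.1 CPM elsewhere. Cx3cr1 was at 133 to 293 CPM in CX3CR1+ macrophages and at 73.0 to 108 CPM in CD9+ macrophages, a log2 difference of CD9+ from CX3CR1+ macrophages of -0.76 on day 1 (adjusted p = 0.007), short of the fold limit, and of -1.55 on day 14 (adjusted p = 7.3e-06). Transcripts of other granulocytes were present in some gates. The 10 neutrophil marker genes summed to 4270 to 13100 CPM in CD9+ macrophages, 22000 to 27900 CPM in F4/80- myeloid cells and 481 to 1080 CPM in CX3CR1+ macrophages, against 46300 to 92300 CPM in neutrophils, and no gene of the list was at 0 in both libraries of a group. The 8 eosinophil markers summed to 649 and 660 CPM in CD9+ macrophages on day 1 and to 7080 and 11500 CPM on day 14, led by Prg2 (major basic protein), and to at most 129 CPM in any other library. The 7 basophil and mast cell markers summed to 107 to 353 CPM in CD9+ macrophages, 1040 to 1970 CPM in F4/80- myeloid cells and at most 2.04 CPM in CX3CR1+ macrophages, where Fcer1a and Cd200r3 were at 0 on day 1. The 7 platelet markers found in the table summed to 157 to 262 CPM in CD9+ macrophages and 18.2 to 51.6 CPM in CX3CR1+ macrophages, where Gp9 was at 0 on both days. In bulk libraries, more cells of a type and more RNA per cell cannot be told apart. The 2 libraries of CD9+ macrophages on day 1 were the least alike of any pair (Pearson r = 0.935 across genes), and their neutrophil marker sums were 4270 and 12500 CPM.

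A gene was called differentially expressed at an adjusted p below 0.05 in edgeR's quasi-likelihood test, adjusted over all 11998 genes tested by the Benjamini-Hochberg method, together with a change of at least 1 on the log2 scale in either direction. The spread was estimated from all 16 libraries together, with 2 pools in each of the 8 groups. The libraries of a group may share more than their gate, so these p-values measure only the spread between pools. From day 1 to day 14, 2 of the 7 tetraspanins rose and none fell in CD9+ macrophages, where 4.75% of all genes rose. In CX3CR1+ macrophages 3 fell and none rose, with 3.47% of all genes falling. In F4/80- myeloid cells and in neutrophils 0 of 7 were called, beside 3.25% and 14.1% of all genes called in either direction. At an unadjusted p below 0.05 there were 2 in F4/80- cells (Cd63 and Cd81) and 3 in neutrophils (Cd9, Cd81 and Cd53), and DESeq2 called 0 in both. Those in neutrophils also passed the adjusted threshold and missed only the fold limit, whereas those in F4/80- cells did not pass it. Median log2 changes of the 7 were 0.13, -0.46, 0.08 and -0.09 in the order of populations above, and those of all genes lay between -0.02 and 0.03.

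Between populations most calls were in comparisons with CX3CR1+ macrophages or neutrophils, but not for every member. Cd63 and Cd81 were not called between neutrophils and CD9+ macrophages or F4/80- cells on either day. Cd53 was not called between CX3CR1+ macrophages and CD9+ macrophages or F4/80- cells. Cd151 was called in no comparison with CX3CR1+ macrophages or neutrophils. Against CX3CR1+ macrophages, CD9+ macrophages had 4 of 7 higher on each day, where 6.36% and 9.65% of all genes were higher. On both days these included Cd9, whose protein separated the gates, so its call is a check of the sort. The others were Cd63, Cd81 and Cd82 on day 1 and Cd63, Cd81 and Cd37 on day 14. Cd9 was also among the genes lower in CX3CR1+ macrophages in the comparisons below, and their gate excludes its protein. Between CD9+ macrophages and F4/80- myeloid cells 0 of 7 were called on day 1, beside 15.4% of all genes. On day 14, 1 of 7 was called (higher, as were 6.59% of all genes). At an unadjusted p below 0.05, 4 of 7 differed on day 1 (Cd9, Cd63, Cd81 and Cd151), and DESeq2 called 0. Of these, Cd9, Cd81 and Cd151 also passed the adjusted threshold and missed only the fold limit (adjusted p = 0.012, 0.011 and 0.026). CX3CR1+ macrophages had 4 and 3 of 7 lower than F4/80- cells on days 1 and 14, beside 10.9% and 10.4% of all genes. Against neutrophils, 4 of 7 were lower in CD9+ macrophages on each day (21.7% and 19.9% of all genes), 6 of 7 in CX3CR1+ macrophages on each day (24.1% and 20.9%), and 4 of 7 in F4/80- cells on each day (22.6% and 21.3%). None of the 7 was called higher in another population than in neutrophils. Comparisons that use the same libraries are not independent of each other.

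**Figure D1:**
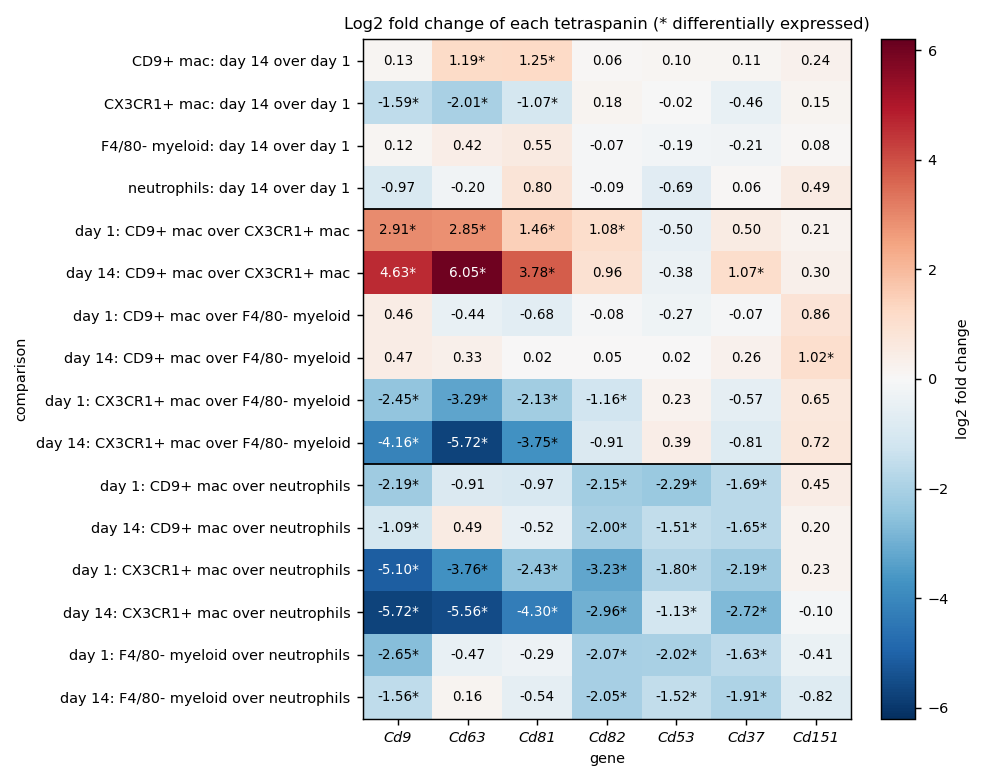
Log2 fold change of each tetraspanin (columns) in the 4 comparisons over time and the 12 between populations (rows), with an asterisk where the gene was called. The value between the macrophage gates on day 14 is 6.05 for Cd63, and no tetraspanin has an asterisk in the rows over time of F4/80- cells and neutrophils.

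Cd9 was highest in neutrophils, a population sorted without CD9. Its level was 678 and 675 CPM in the neutrophil libraries of day 1 and 346 and 347 CPM in those of day 14. In CD9+ macrophages it was 149 and 149 CPM on day 1 and 142 and 184 CPM on day 14. F4/80- myeloid cells held 109 and 107 CPM on day 1 and 114 and 121 CPM on day 14. These 3 populations did not overlap each other. CX3CR1+ macrophages were far below with 18.5 and 21.1 CPM on day 1 and 6.62 and 6.50 CPM on day 14, and their gate excludes cells with CD9 protein. Neutrophils had 4.55-fold more Cd9 than CD9+ macrophages on day 1 (log2 difference of CD9+ macrophages from neutrophils -2.19 ± 0.13, SE; adjusted p = 4e-09) and 2.13-fold more on day 14 (-1.09 ± 0.13, adjusted p = 2.1e-06). The day 14 call was lost without CD9+ macrophages replicate 1 of that day (-0.89, adjusted p = 8.2e-05), where the fold limit was missed, and with other scalings (down to -0.60 by library size alone). F4/80- cells were also below neutrophils, by 6.27-fold on day 1 and 2.95-fold on day 14, where scaling by library size alone left the difference just under the fold limit (-0.999). Between F4/80- cells and CD9+ macrophages the distance was small: CD9+ macrophages were higher by 0.46 on the log2 scale on day 1 (adjusted p = 0.012) and 0.47 on day 14 (adjusted p = 0.02), short of the fold limit.

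Ordered by level, Cd9 descended from neutrophils on day 1 through neutrophils on day 14 to CD9+ macrophages on day 14, CD9+ macrophages on day 1, F4/80- cells on day 14 and day 1, and then CX3CR1+ macrophages on day 1 and day 14. Only the 2 days of CD9+ macrophages (adjusted p = 0.5) and the 2 days of F4/80- cells (adjusted p = 0.67) were neighbours that did not differ beyond their spread. Over time Cd9 was lower by 0.97 on the log2 scale in neutrophils (SE 0.13, adjusted p = 4e-05), just short of the fold limit, and with the replicate number as a block it passed (-1.01, adjusted p = 0.00011). The 9 macrophage markers summed to 2680 and 3060 CPM in the neutrophil libraries of day 1 and to 423 and 445 CPM in those of day 14, all 9 detected, beside 1200 to 2890 CPM in CD9+ macrophages. Of these markers, the gate genes Adgre1 and Cx3cr1 were at 41.3 to 43.6 CPM and 8.25 to 9.83 CPM in neutrophils on day 1. Ccr2 was at 49.85 to 69.52 CPM there. Each was below every CD9+ library, and most of the sum in neutrophils on day 1 came from other genes of the list. In the same neutrophil libraries Cd9 was at 678 and 675 CPM, beside 149 and 149 CPM in CD9+ macrophages on day 1. The part of the macrophage markers in the lower Cd9 of neutrophils on day 14 was not tested. In CD9+ macrophages, whose gate requires the protein on both days, the log2 change was 0.13 ± 0.13 (adjusted p = 0.5). The summed neutrophil markers were also highest in neutrophils and lowest in CX3CR1+ macrophages. Between the remaining populations, the marker sum was higher in F4/80- cells and Cd9 was higher in CD9+ macrophages. The part of the neutrophil markers in the order of Cd9 was not tested.

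**Figure D2:**
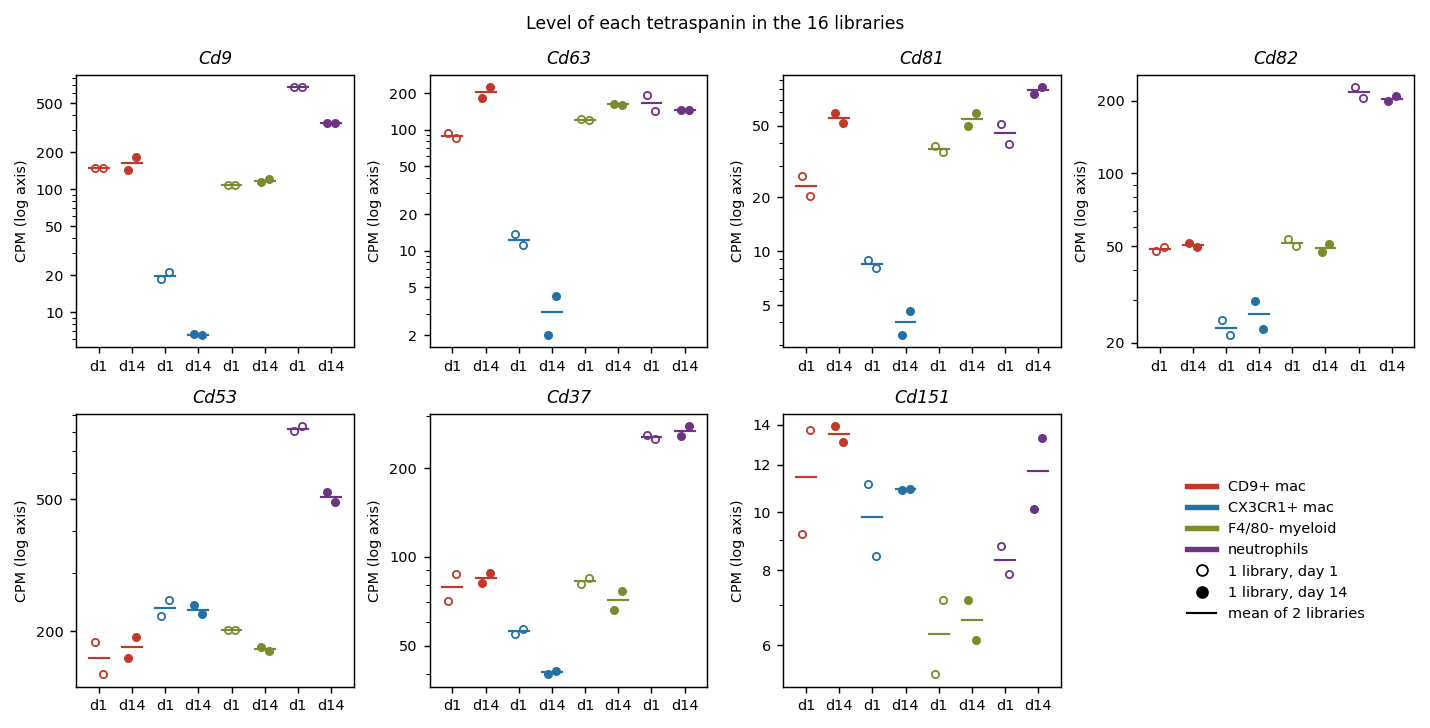
CPM (log axis, scaled separately in each panel) of the 7 tetraspanins in every library, with open points for day 1, filled points for day 14 and a line at the mean of the 2 libraries of a group. Cd9, Cd63, Cd81, Cd82 and Cd37 are lowest in CX3CR1+ macrophages, Cd9, Cd82, Cd53 and Cd37 are highest in neutrophils, and Cd151 stays between 5.37 and 13.9 CPM.

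Cd63, the lysosome and granule tetraspanin, separated the macrophage gates more widely than the gate gene itself on day 14. Its level in CD9+ macrophages was 93.0 and 85.6 CPM on day 1 and 183 and 225 CPM on day 14. In CX3CR1+ macrophages it was 13.7 and 11.03 CPM on day 1 and 2.004 and 4.18 CPM on day 14, the latter from 23 and 45 counts. The libraries of the macrophage populations did not overlap on either day. CD9+ macrophages had 7.22-fold more on day 1 (log2 2.85 ± 0.21, adjusted p = 3.9e-07) and 66.3-fold more on day 14 (6.05 ± 0.26, adjusted p = 1e-09), where Cd9 differed by 24.8-fold (4.63 ± 0.16). Leaving out single libraries moved the day 14 difference of Cd63 between 5.61, without CX3CR1+ macrophages replicate 1 of that day, and 6.65, without replicate 2. The difference between these folds of 2 genes was not tested. Cd63 rose 2.28-fold in CD9+ macrophages from day 1 to day 14 (1.19 ± 0.19, adjusted p = 0.00078) and fell 4.02-fold in CX3CR1+ macrophages (-2.01 ± 0.26, adjusted p = 0.00011). That fall was -1.57 without CX3CR1+ macrophages replicate 1 of day 14 and -2.62 without replicate 2. With the replicate block the rise was 0.99 (adjusted p = 0.0043), below the fold limit.

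In the other populations Cd63 did not pass the test over time. F4/80- myeloid cells held 122 and 120 CPM on day 1 and 164 and 160 CPM on day 14 (log2 change 0.42, adjusted p = 0.22). Neutrophils held 193 and 141 CPM on day 1 and 145 and 145 CPM on day 14 (-0.20, adjusted p = 0.46). Among these and the CD9+ macrophages, no neighbours in the order of Cd63 levels differed beyond their spread, from CD9+ macrophages on day 14 at the top down to CD9+ macrophages on day 1. The next step down, to CX3CR1+ macrophages, was 2.85 on the log2 scale. The eosinophil marker sum in CD9+ macrophages increased between the days together with Cd63, from 649 and 660 CPM to 7080 and 11500 CPM. Its part in the rise of Cd63 was not tested.

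Cd81, the CD9 relative that also belongs to the B cell coreceptor, passed the test over time in both macrophage gates. It was at 26.1 and 20.2 CPM in CD9+ macrophages on day 1 and at 58.6 and 51.7 CPM on day 14, and it rose 2.37-fold (1.25 ± 0.18, adjusted p = 0.00037). It was at 8.87 and 7.996 CPM in CX3CR1+ macrophages on day 1 and at 3.399 and 4.64 CPM on day 14, and it fell 2.10-fold (-1.07 ± 0.22, adjusted p = 0.0044). The CX3CR1+ libraries were the lowest on both days. That fall rested on single libraries: it was -0.99 (adjusted p = 0.039) without CX3CR1+ macrophages replicate 1 of day 1 and -0.87 (adjusted p = 0.079) without replicate 1 of day 14. CD9+ macrophages exceeded CX3CR1+ macrophages 2.75-fold on day 1 and 13.7-fold on day 14 (1.46 ± 0.19 and 3.78 ± 0.22 on the log2 scale, adjusted p = 9e-05 and 1.7e-08).

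F4/80- myeloid cells held 38.7 and 35.5 CPM of Cd81 on day 1 and 49.96 and 58.6 CPM on day 14. Neutrophils held 51.1 and 39.8 CPM on day 1 and 75.5 and 82.3 CPM on day 14, the highest of the 8 groups, and a difference of 0.80 ± 0.18 (adjusted p = 0.0037) that stayed under the fold limit. CD9+ macrophages were below neutrophils on day 1 by 0.97 for Cd81 and 0.91 for Cd63 on the log2 scale, short of the fold limit, and passed it when some single libraries were left out (-1.17 without CD9+ macrophages replicate 1 and -1.14 without neutrophils replicate 2 for Cd81, -1.11 without neutrophils replicate 2 for Cd63). R74862, on the opposite strand, had up to 84 counts in neutrophils beside the 800 counts of Cd81, and its part in the neutrophil level was not tested. In CD9+ macrophages, Cd81 was below F4/80- cells on day 1 by 0.68 on the log2 scale (adjusted p = 0.011), and on day 14 the libraries of these populations overlapped (difference 0.02, adjusted p = 0.96).

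The change over time differed between the macrophage gates for these 3 genes and for no other member. The change in CD9+ macrophages exceeded that in CX3CR1+ macrophages by 3.20 ± 0.32 on the log2 scale for Cd63 (adjusted p = 0.00017), by 2.32 ± 0.28 for Cd81 (adjusted p = 0.00066) and by 1.72 ± 0.20 for Cd9 (adjusted p = 0.00042). So 3 of 7 were higher in this comparison, where 1.34% of all genes were. The other 4 had differences between -0.12 and 0.57, with adjusted p between 0.12 and 0.94. For Cd9 the gate itself used the protein, so its value describes the sort as well as the cells. These 3 values stayed past both thresholds without any 1 of the 16 libraries, and that of Cd63 ranged from 2.78, without CX3CR1+ macrophages replicate 1 of day 14, to 3.82, without replicate 2. Neutrophil markers were lower in CX3CR1+ macrophages on day 14 (481 and 603 CPM) than on day 1 (1060 and 1080 CPM), and eosinophil markers were higher in CD9+ macrophages on day 14. Their part in these differences was not tested.

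Against the mean change of both macrophage populations, 0 of 7 members had a different change over time in neutrophils and 0 of 7 in F4/80- cells, where 8.81% and 0.85% of all genes were called. At an unadjusted p below 0.05 there were 2 in neutrophils (Cd81 and Cd53) and 2 in F4/80- cells (Cd9 and Cd63), and DESeq2 called 0 in both. Cd53 in neutrophils (-0.73 ± 0.16, adjusted p = 0.0061) and Cd9 in F4/80- cells (0.85 ± 0.16, adjusted p = 0.019) passed the p threshold without the fold.

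**Figure D3:**
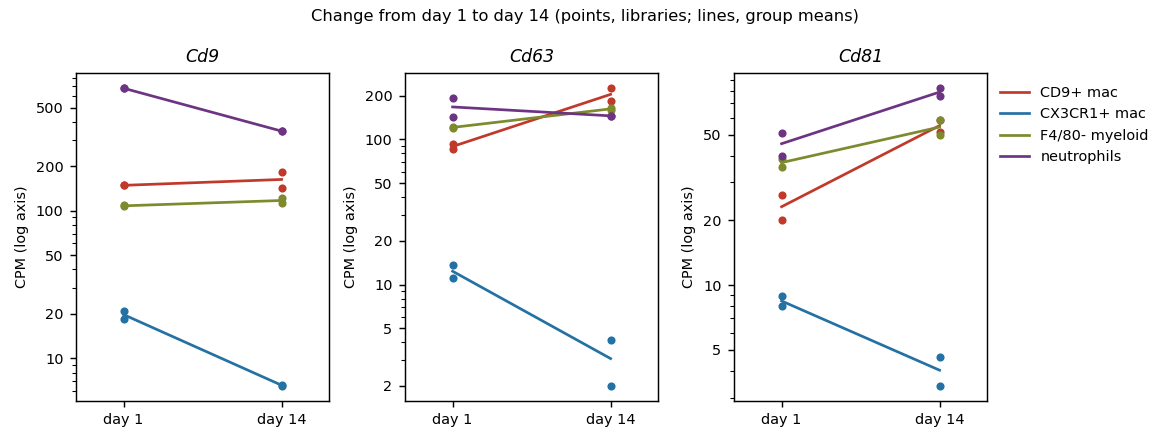
CPM (log axis) of Cd9, Cd63 and Cd81 on day 1 and day 14, with a point for each library and a line through the means of the 2 libraries in each population. The CX3CR1+ lines go down in all 3 panels, while the CD9+ lines go up for Cd63 and Cd81 and the CD9+ libraries stay between 142 and 184 CPM for Cd9.

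Cd82 and Cd37 were highest in neutrophils, as were Cd9 and Cd53, and lowest in CX3CR1+ macrophages, as were Cd9, Cd63 and Cd81. Cd82 was at 228 and 206 CPM in neutrophils on day 1 and at 199 and 209 CPM on day 14, and in no other library above 53.4 CPM. CD9+ macrophages held 48.0 and 49.6 CPM on day 1 and 51.7 and 49.9 CPM on day 14, and F4/80- cells held between 47.2 and 53.4 CPM. CX3CR1+ macrophages held 24.7 and 21.5 CPM on day 1 and 29.6 and 22.7 CPM on day 14. Its level thus formed 3 steps, neutrophils, then CD9+ macrophages with F4/80- cells, then CX3CR1+ macrophages, and within each step neighbours did not differ beyond their spread. Neutrophils had 4.44-fold more than CD9+ macrophages on day 1 and 4.02-fold more on day 14 (adjusted p = 9.1e-09 and 1.3e-08). CD9+ macrophages had 2.11-fold more than CX3CR1+ macrophages on day 1 (1.08 ± 0.14, adjusted p = 9e-05) and 1.94-fold more on day 14, short of the fold limit (0.96 ± 0.14, adjusted p = 0.00013). The day 1 call was lost without CX3CR1+ macrophages replicate 2 of that day (0.96) and with scaling by library size alone (0.83), and the day 14 difference passed the limit without CX3CR1+ macrophages replicate 1 of day 14 (1.16).

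Cd37, best known from mature B cells, was at 259 and 252 CPM in neutrophils on day 1 and at 256 and 277 CPM on day 14. CD9+ macrophages held 70.9 and 87.2 CPM on day 1 and 81.8 and 88.3 CPM on day 14, and F4/80- cells 80.5 and 84.7 CPM on day 1 and 65.8 and 76.6 CPM on day 14. In CX3CR1+ macrophages it was 54.6 and 57.0 CPM on day 1 and 39.9 and 41.1 CPM on day 14. The CX3CR1+ libraries lay below all others, and the drop over time in them (-0.46 ± 0.13, adjusted p = 0.029) was short of the fold limit. CD9+ and CX3CR1+ macrophages differed by 0.50 on the log2 scale on day 1 (adjusted p = 0.015) and by 1.07 on day 14 (adjusted p = 1.9e-05), and without CD9+ macrophages replicate 2 of day 14 the latter was 0.998, just under the limit. Neutrophils exceeded CX3CR1+ macrophages 4.57-fold on day 1 and 6.58-fold on day 14 (adjusted p = 2e-09 and 2.3e-10). Neither gene was called between the days in any population.

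Cd53, the pan-leukocyte tetraspanin, ran the other way among the macrophages. Neutrophils held 804 and 830 CPM on day 1 and 525 and 492 CPM on day 14, a change of -0.69 on the log2 scale that missed the fold limit (adjusted p = 0.00097). CX3CR1+ macrophages came next, at 223 and 248 CPM on day 1 and 239 and 225 CPM on day 14. CD9+ macrophages held 185 and 148 CPM on day 1 and 166 and 192 CPM on day 14, below every CX3CR1+ library. F4/80- cells held 202 and 201 CPM on day 1 and 179 and 174 CPM on day 14. CD9+ macrophages were lower than CX3CR1+ macrophages by 0.50 on the log2 scale on day 1 (adjusted p = 0.016) and by 0.38 on day 14 (adjusted p = 0.041), both short of the fold limit, so Cd53 was the member with the sign opposite to Cd9. Neutrophils exceeded CX3CR1+ macrophages 3.47-fold on day 1 and 2.19-fold on day 14 (adjusted p = 1.5e-08 and 1.6e-06). The day 14 call was lost with scaling by library size alone (-0.62), by the upper quartile (-0.92) or with a filter met in every group (-0.92). That of F4/80- cells against neutrophils on day 14 was also lost by library size alone (-0.96).

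Cd151 was low throughout, with 75 to 254 counts a library. It was at 9.19 and 13.7 CPM in CD9+ macrophages on day 1 and at 13.9 and 13.1 CPM on day 14. F4/80- cells had the lowest levels, 5.37 and 7.15 CPM on day 1 and 7.13 and 6.12 CPM on day 14. CX3CR1+ macrophages held 8.47 to 11.2 CPM and neutrophils 7.90 to 13.3 CPM. The 1 call among 16 comparisons was CD9+ macrophages over F4/80- cells on day 14 (2.03-fold, 1.02 ± 0.28, adjusted p = 0.022). It was lost without any of the 4 libraries compared (0.90 to 1.12, adjusted p 0.092 to 0.19), without a filter on low levels (0.98), by DESeq2 (0.99) and with scaling by library size alone (0.96). On day 1 the same comparison gave 0.86 (adjusted p = 0.026), which passed without CD9+ macrophages replicate 1 (1.13) or F4/80- cells replicate 2 (1.06). F4/80- cells were below neutrophils on day 14 (-0.82 on the log2 scale, adjusted p = 0.016), short of the fold limit, which was passed without neutrophils replicate 1 (-1.001).

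Per kb of exon, Cd53 made up the largest share of the 7 transcripts in all 8 groups, and the share was largest in CX3CR1+ macrophages. Without division by length Cd63 came first in CD9+ macrophages on day 14 (27.1% against 23.9% for Cd53). In CX3CR1+ macrophages Cd53 took 75.8% ± 1.7 (SD, n = 2) of the summed CPM per kb on day 1 and 81.8% ± 0.28 on day 14, against 33.9% to 46.5% in the means of the other groups. Cd9 took 5.42% ± 0.22 and 1.97% ± 0.05 in CX3CR1+ macrophages on days 1 and 14, and between 20.5% and 32.8% in the means of the others. These shares are ratios within a library and do not depend on the scaling between libraries. In CD9+ macrophages Cd63 took 9.95% ± 0.056 at day 1 and 18.2% ± 0.76 at day 14. It took 12.8% and 16.9% in F4/80- cells and 4.49% and 5.83% in neutrophils on the same days. Cd82 and Cd37 stayed between 4.33% and 11.2% in every group mean. Summed over the 7 genes, neutrophils held 1000 and 1020 CPM per kb on day 1 and 673 and 679 on day 14, and no other library exceeded 326. CX3CR1+ macrophages held the least, 171 and 185 on day 1 and 159 and 168 on day 14.

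**Figure D4:**
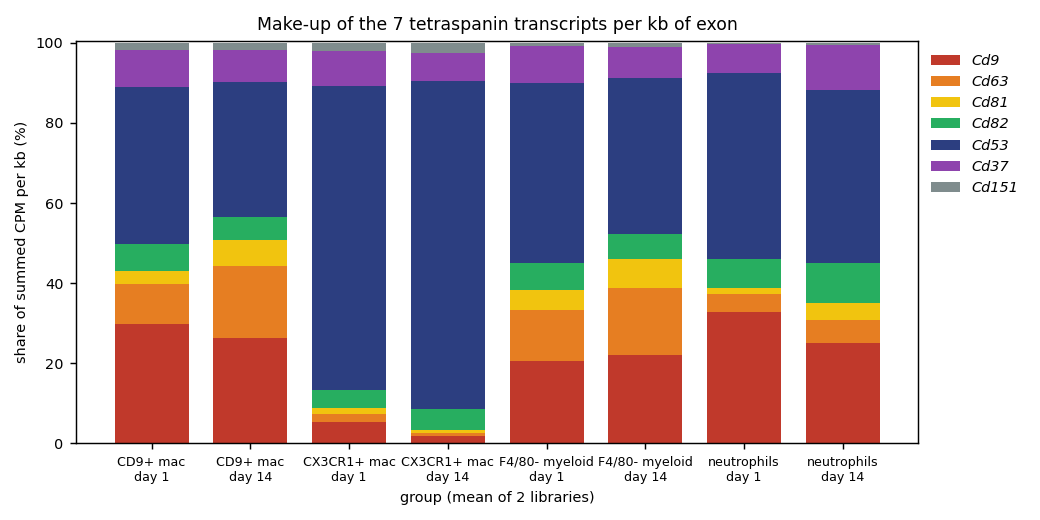
Stacked bars of each gene's share of the summed CPM per kb of exon over the 7 tetraspanins, as the mean of the 2 libraries in each of the 8 groups. Cd53 fills 75.8% and 81.8% of the CX3CR1+ bars, where Cd9, Cd63 and Cd81 together form a thin base.

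The ratio of Cd9 to Cd63 within libraries also changed order between populations. As log2 ratios of CPM, the CD9+ macrophage libraries of day 1 had 0.68 and 0.80 and those of day 14 had -0.36 and -0.29. The neutrophil libraries had 1.81 and 2.26 at first and 1.25 and 1.26 after 14 days, and F4/80- cells were below 0 in all 4 libraries. Neutrophils thus had more Cd9 for their Cd63 than any CD9+ library. The ratio in CX3CR1+ macrophages ranged from 0.43 to 1.72 and rests on few Cd63 counts on day 14.

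Across the 16 libraries, Cd63 and Cd81 followed each other most closely of the Cd9 group (Pearson r = 0.964 of log2 CPM), Cd9 and Cd63 had r = 0.914, and Cd82 and Cd37 had r = 0.977. In the 12 libraries that are not neutrophils, Cd53 had r between -0.80 and -0.72 with Cd9, Cd63, Cd81, Cd82 and Cd37, whereas the pairs among those 5 genes had r of at least 0.844. With neutrophils included, Cd53 had positive r with all 5, from 0.166 to 0.811. Cd151 had r between -0.17 and 0.04 with the other 6 over 16 libraries. These coefficients describe libraries that fall into 8 groups and share their gates.

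Outside the lists of this report, 3 genes were taken for each member whose log2 CPM over the 16 libraries was most like its own. The 8 genes nearest to Cd9, Cd63 and Cd81 all had their lowest levels in CX3CR1+ macrophages. This follows from the choice of genes by likeness to these members and is not a separate result. For Cd9 they were Fhl3 (r = 0.984), Gpr157 (0.971) and Actn1 (0.967), the last encoding the actin crosslinker alpha-actinin 1, and Actn1 was at 1445 to 1798 CPM in neutrophils and at 4.01 to 29.3 CPM in CX3CR1+ macrophages. For Cd63 they were Tuba8 (0.967), Cebpe (0.964), a transcription factor of granulocyte maturation, and Mapk4 (0.957). Cebpe was at 32.5 and 72.9 CPM in CD9+ macrophages on day 1 and at 97.3 and 97.6 CPM on day 14, and at 2.35 to 4.35 CPM in CX3CR1+ macrophages. For Cd81 they were Ffar2 (0.983), a receptor for short-chain fatty acids, Gca (0.978), which encodes grancalcin of neutrophil granules, and Mapk4 (0.976). Cd82 was closest to Thap4 (0.989), Capn1 and Slc27a4 (both 0.987), and Cd37 to Dennd3 (0.995), Dhrs9 and Slc27a4 (both 0.988). Cd53 was closest to March7 (0.984), Eif1 (0.983) and Mtmr6 (0.98), and Cd151 only loosely to Tbxas1 (0.839), Man2b1 (0.826) and Camk1 (0.811), all r over 16 libraries.

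Of the 24 other genes of the family listed, 17 were in the table and 10 were tested. Between CD9+ and CX3CR1+ macrophages 1 of 10 was higher on day 1 and 2 of 10 on day 14, with medians of 0.40 and 0.22 on the log2 scale beside 0.04 and 0.01 for all genes. Over all genes 6.36% and 9.65% were higher. Tspan2 was the gene called on both days (3.09 ± 0.29 and 3.77 ± 0.31, adjusted p = 4e-06 and 3.4e-07), and it was at 1.05 to 1.39 CPM in the 4 CX3CR1+ libraries against 7.92 to 22.6 CPM in CD9+ macrophages and 20.5 to 34.8 CPM in F4/80- cells and neutrophils. It shared with Cd9, Cd63, Cd81, Cd82 and Cd37 the lowest place in CX3CR1+ macrophages. The other was Tspan32 (1.40 ± 0.20, adjusted p = 8.9e-05), named after its value was seen. Tspan31 and Tspan3 were lowest in neutrophils, at 1.65 to 12.8 CPM and 0.61 to 1.57 CPM, whereas Cd9, Cd82, Cd53 and Cd37 were highest there. Over time, Tspan17 rose in CD9+ macrophages (1.71 ± 0.51, adjusted p = 0.031), the only call of 10 there, where 4.75% of all genes rose. Its level was low, 1.06 and 1.13 CPM on day 1 and 3.07 and 4.16 CPM on day 14. In CX3CR1+ macrophages edgeR and DESeq2 each called 0 of 10, beside 5.86% of all genes called by edgeR, with 3 at an unadjusted p below 0.05 (Tspan5, Tspan17 and Tspan31).

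Of 26 listed partner proteins, 20 were tested, and CD9+ differed from CX3CR1+ macrophages in 4 of 20 on day 1 (3 higher, 1 lower) and in 7 of 20 after 14 days (4 higher, 3 lower). Of all genes, 6.36% were higher and 1.88% lower on day 1 and 9.65% and 4.55% on day 14, and the medians of the partners were 0.15 and 0.16 on the log2 scale beside 0.04 and 0.01. On day 1 the higher genes were Vcam1, Cd36 and Kit and the lower was Itga4. On day 14 Vcam1, Cd36, Kit and Itga6 were higher and Itga4, Itgb7 and Clec7a were lower, all except Vcam1 and Cd36 named after their values were seen. Vcam1, the ligand of integrin alpha 4 and a protein that gathers in tetraspanin domains of endothelium, was at 11.2 and 21.4 CPM in CD9+ macrophages on day 1 and at 174 and 207 CPM on day 14. It rose there (3.53 ± 0.36, adjusted p = 1.7e-05), and its change exceeded that in CX3CR1+ macrophages by 3.26 ± 0.53 (adjusted p = 0.0039). Ptgfrn, an immunoglobulin-family protein that binds CD9 and CD81 directly, fell between the days in all 4 populations, by 2.11 in CD9+ macrophages, 2.12 in CX3CR1+ macrophages, 1.99 in F4/80- cells and 1.39 in neutrophils on the log2 scale. Its direction was thus shared by both macrophage gates while Cd9 and Cd81 were not lower in CD9+ macrophages on day 14. Timp1, a CD63-binding protease inhibitor, fell in CD9+ macrophages from 13.2 and 19.9 CPM to 1.63 and 1.82 CPM (-3.25 ± 0.71, adjusted p = 0.0066). It also fell in CX3CR1+ macrophages (-2.95 ± 0.75, adjusted p = 0.019), to 0.087 and 1.58 CPM on day 14. Its fall was also called in F4/80- cells (-4.14 ± 0.95, adjusted p = 0.019), where no library exceeded 3.56 CPM. In neutrophils the called fall (-6.37 ± 2.13, adjusted p = 0.039) rests on few counts. Timp1 was at 0.30 and 1.23 CPM there on day 1 and at 0 in both libraries of day 14. Icam1 fell in neutrophils from 193 and 300 CPM to 5.90 and 6.48 CPM (-5.31 ± 0.25, adjusted p = 2.8e-09).

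The list of late endosomes, lysosome membranes and exosome formation had 12 tested genes. Between CD9+ and CX3CR1+ macrophages 0 of 12 were called on either day by edgeR or DESeq2, where edgeR called 8.23% and 14.2% of all genes, with medians of -0.02 and -0.13, and 4 on each day had an unadjusted p below 0.05. Over time 0 of 12 were called in CD9+, CX3CR1+ and F4/80- cells by either tool, beside 8.23%, 5.86% and 3.25% of all genes by edgeR, with 4, 3 and 1 at an unadjusted p below 0.05. Lamp1, the lysosome membrane protein most used beside CD63 as a marker, was at 487 and 526 CPM in CD9+ macrophages on day 1 and at 476 and 597 CPM on day 14, and at 625 to 839 CPM in CX3CR1+ macrophages, which had the least Cd63. On day 14 CD9+ macrophages had less Lamp1 by 0.64 on the log2 scale (adjusted p = 0.00098), short of the fold limit. Rab7 and Vps4b were lower in CD9+ macrophages than in neutrophils on both days, by 1.27 and 1.52 on the log2 scale on day 1 and by 1.26 and 1.47 after 14 days. Scarb2 fell in neutrophils (-2.17 ± 0.20, adjusted p = 1.6e-06), between 252 and 451 CPM on day 1 and 78.0 and 78.1 CPM on day 14.

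Among 10 genes of macrophage fusion, the process that CD9 and CD81 restrain, 1 was higher in CD9+ than in CX3CR1+ macrophages on day 1 (Cd36, 2.25 ± 0.28) and 4 on day 14 (Cd36, Trem2, Ocstamp and Dcstamp, the last named after its value was seen), with none lower and medians of -0.01 and 0.07. Of all genes 6.36% and 9.65% were higher. Cd36, a scavenger receptor that is also listed among the partners, was at 106 to 173 CPM in CD9+ macrophages and at 15.4 to 27.4 CPM in CX3CR1+ macrophages. Trem2 fell in CX3CR1+ macrophages from 36.2 and 45.2 CPM to 15.6 and 15.8 CPM (-1.38 ± 0.34, adjusted p = 0.015). Ocstamp was low, at 2.78 and 5.58 CPM in CD9+ macrophages on day 14 and 1.21 and 1.22 CPM in CX3CR1+ macrophages. Dcstamp was lower still, with a mean of 0.667 CPM over the 16 libraries, so its day 14 call (5.22 ± 1.48, adjusted p = 0.019) rests on few counts. Adam9 did not pass the test between the macrophage gates and was lower in F4/80- cells than in CD9+ macrophages on day 14 by 1.83 on the log2 scale (adjusted p = 2.3e-05). The osteoclast markers, a list that shares Ocstamp and Dcstamp with these genes, were also higher in CD9+ macrophages. They summed to 117 and 211 CPM there on day 1 and to 256 and 284 CPM on day 14. In CX3CR1+ macrophages they summed to 20.5 and 29.9 CPM on day 1 and to 7.52 and 9.76 CPM on day 14. The part of the osteoclast markers in the differences of the fusion genes was not tested.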

How the data were processed

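Bulk RNA sequencing was measured in 16 libraries of 4 sorted populations on days 1 and 14. The authors prepared libraries with a stranded SMART-Seq kit, aligned paired-end reads with STAR to mm10, and deposited raw counts of reads in exons for 20200 genes. The strand setting is not given in the sources used here. Groups came from the sample titles. Genes with a mean by library size of at least 3 CPM in at least 1 group (11998) were fitted together with edgeR 4.0.16 in R 4.3.3, using TMM scaling and a mean for each of the 8 groups. The quasi-likelihood test gave p-values, adjusted over all tested genes of a comparison by the Benjamini-Hochberg method. SE is the absolute log2 fold change divided by the square root of the F statistic. CPM per kb used exon lengths of Gencode M21. The test was checked on simulated counts.

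The 7 members, the gene lists and the markers were chosen with earlier results of these data known. Named genes outside the members were the 3 with the highest correlation to each member, up to 4 genes of each list called in the most comparisons, the gate genes, and the gene of highest CPM in each marker list. Genes of a count of 5 or fewer are named too. Both macrophage populations were given equal weight in comparisons with their mean. Libraries of the same number and day appear to share their mice, since fewer mice were used than separate pools would need. Correlations of their deviations from group means were 0.0132 to 0.144. The fit had no block, since the study's methods name none, and a replicate block within day was an alternative. Others were DESeq2 1.42.0, library size or upper quartile scaling, other filters, only the libraries compared, no fold limit, and leaving out each library. Depth was 9233952 to 19814119 counts a library. Each group had 2 pools, which limits the precision.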

Additional observations from a re-analysis of the deposited data

Results flagged for a closer look

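Changes over time that differed between populations were picked out by the test of that difference itself. Between CD9+ and CX3CR1+ macrophages these were Cd63, with a difference of 3.20 on the log2 scale, Cd81 with 2.32 and Cd9 with 1.72. Cd63 and Cd81 rose in CD9+ macrophages and fell in CX3CR1+ macrophages, whereas Cd9 fell in CX3CR1+ macrophages and had a log2 change of 0.13 in CD9+ macrophages. Cd53 in neutrophils differed from the mean change of both macrophage populations by -0.73, and Cd9 in F4/80- myeloid cells by 0.85, both below the fold limit. Leaving out single libraries raised the adjusted p of the last 2 to as much as 0.052 and 0.13, and kept those of Cd63, Cd81 and Cd9 between the macrophage gates at or below 0.0016, 0.0084 and 0.0061. Groups of 2 libraries are too small for a check of single values far from the rest.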

How the results depend on the processing

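The calls of members numbered 5 of 28 over time, 44 of 84 between populations and 3 of 21 for a difference in the change over time. Without a fold limit they were 9, 63 and 5. Under other scalings, filters, DESeq2, the compared libraries alone or the block they stayed at 5, between 38 and 44, and at 3. The compared libraries alone gave no count for the 3 differences in change, as they were run for the macrophage gates only. Leaving out each library gave 4 to 5, 42 to 46 and 3. With the replicate block within each day the counts were 5, 44 and 3. It moved Cd63 over time in CD9+ macrophages to 0.99 and Cd9 over time in neutrophils to -1.01, and changed no other member's call.

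Scaling by library size alone shifted the median of all genes by up to 0.61 on the log2 scale in comparisons with neutrophils, and by -0.24 between the macrophage gates on day 1, 0.19 over time in CD9+ macrophages and 0.22 for the difference in change between the gates. It reversed F4/80- cells against neutrophils for Cd63 on day 1 (to 0.14) and for Cd81 on day 14 (to 0.023), neither of which was called. Cd9 over time in CD9+ macrophages ranged from -0.059, without CD9+ macrophages replicate 2 of day 14, to 0.32 over the 16 omissions. Of the 56 member comparisons with an adjusted p of 0.05 or more, 22 changed sign under some alternative, and the largest of these was 0.41 in size. Shares without division by length were 71.8% for Cd53 and 2.03% for Cd9 in CX3CR1+ macrophages on day 14, and 23.9% and 21.6% in CD9+ macrophages on day 14.

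The list counts were rerun after the data were seen. With a filter met in every group they were 7 instead of 49 for the other tetraspanins and 28 instead of 73 for the fusion genes, since fewer genes were tested. Precision is limited by 2 pools a group, and for Cd151 and for Cd63 and Cd81 in CX3CR1+ macrophages on day 14 by few counts.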
